A study of Mus musculus with 6 samples.

Results

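The genes of the Mediator complex were examined in naive CD8 T cells that lacked or carried the inhibitory receptor LAIR-1. Members were taken by name: every gene in the count table whose symbol was Med followed by a number, with or without a final l, together with Cdk8, Cdk19 and Ccnc. This gave 33 of the 14515 genes in the table. The complex was taken up with earlier results of these data in view, in which the Mediator gene Med24 had one of the smallest unadjusted p-values between the genotypes. Differences between the genotypes are therefore given below as a description of the members, beside the same measure over all genes tested.

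Cells came from the spleens of 3 LAIR-1-deficient (Lair1-/-) mice and 3 wild type (Lair1+/+) mice, and each mouse gave a library from 100000 sorted cells. The sort took CD45+, CD3+ and CD8+ cells without CD44, among other criteria, and the total RNA was sequenced. The genotype was the only difference between the groups that the labels gave. The age and sex of the mice and the construction of the deleted allele were not given in the sources used here.

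Mediator is a large assembly that carries signals from DNA-bound transcription factors to RNA polymerase II at promoters. Its head and middle modules contact the polymerase, its tail is the main landing site for transcription factors, and the Med14 subunit runs through the complex as a scaffold. A separable kinase module, made of a cyclin-dependent kinase, cyclin C and the Med12 and Med13 subunits, binds the core reversibly and regulates its contact with the polymerase. The members were grouped here as 7 head genes, 9 middle genes, 9 tail genes, 7 kinase module genes and Med14, with Med27 to Med30 placed in the tail.

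Library totals ranged from 5519748 to 7296424 counts in LAIR-1-deficient cells and from 7974206 to 9187017 counts in wild type cells, so every LAIR-1-deficient library was shallower. Lair1 itself had 2, 1 and 1 counts in LAIR-1-deficient mice 1 to 3, against 58, 32 and 43 counts in wild type mice 1 to 3. Xist had between 243 and 566 counts and Ddx3y between 0 and 1 count in the 6 libraries. Of the markers of CD8 T cells all 9 were tested, and their summed level was 7109 to 7822 CPM in LAIR-1-deficient cells and 7282 to 7672 CPM in wild type cells. Cd8a, Cd8b1, Cd3e, Cd3d and Cd3g are among them, and the sort selected for CD8 and CD3, so a high sum was fixed in advance. CPM are counts scaled to a common library size with TMM, edgeR's normalisation of library composition. Summed markers of other cells were low in both groups, with 28.8 to 35.3 CPM in LAIR-1-deficient and 31.7 to 35.1 CPM in wild type cells for the 6 B cell genes in the table. For 9 myeloid genes the sums were 205 to 219 CPM in LAIR-1-deficient and 211 to 251 CPM in wild type cells. The natural killer cell genes (6) summed to 42.2 to 59.8 CPM in LAIR-1-deficient and 39.2 to 56.2 CPM in wild type cells. Those of CD4 T cells (4) summed to 1.96 to 4.37 CPM in LAIR-1-deficient and 1.09 to 4.38 CPM in wild type cells, and those of red cells and platelets (4 in the table) to 1.07 to 3.69 CPM in LAIR-1-deficient and 1.91 to 5.42 CPM in wild type cells. The myeloid sum came mostly from Ctss and Cst3, at 136 to 157 CPM and 52.7 to 66.4 CPM in LAIR-1-deficient cells and at 141 to 172 CPM and 52.5 to 66.3 CPM in wild type cells. The natural killer sum came mostly from Eomes, at 40.2 to 58.7 CPM in LAIR-1-deficient and 38.1 to 52.5 CPM in wild type cells. Lyz2 and Ncr1 were the lowest genes of these lists, with at most 0.137 CPM in any library. Other genes of the lists reached higher levels. Cd68 had 3.01 to 3.91 CPM in LAIR-1-deficient cells and 2.85 to 3.41 CPM in wild type cells. C1qb reached 5.47 CPM and Tyrobp 1.97 CPM, both in wild type mouse 2. Csf1r reached 3.55 CPM in LAIR-1-deficient mouse 3, and Fcgr3 1.78 CPM in LAIR-1-deficient mouse 2. The part of these cells in the Mediator values was not tested, and in bulk RNA fewer cells of a type and less RNA per cell cannot be told apart. The mouse 1 library of each genotype stood apart in immediate early genes, which are the first to respond to receptor signals, and the medians over members and modules are also given without those libraries.

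The promoter sequences of 28 of the 33 members were found in RefSeq (GRCm38.p6) as windows from 250 bases before to 50 bases after a gene's start. Exact matches were searched on both strands for the letters CCGGAAG, which ETS factors bind. The same was done for AAGATGG, which the factor YY1 binds, and for TGACGTCA, the cyclic AMP response element. Also searched were the Sp1 letters GGGCGG, the TATAAA box, the palindromic NRF1 motif and the CCAAT box, and overlapping matches were counted. Shown are the window at the second annotated start of Med10, the member with the most ETS matches, of Med14, which has an ETS match on the other strand, of Med21, the only member with the cyclic AMP element, and of Cdk8, the tested member with the lowest level per kilobase of all exon bases, which had no match of these 4 kinds. Capitals mark matches to the ETS, NRF1, YY1 and cyclic AMP element letters, and each window reads 5′ to 3′ along the gene's strand.
Med10, chr13:69809632-69809931, plus strand: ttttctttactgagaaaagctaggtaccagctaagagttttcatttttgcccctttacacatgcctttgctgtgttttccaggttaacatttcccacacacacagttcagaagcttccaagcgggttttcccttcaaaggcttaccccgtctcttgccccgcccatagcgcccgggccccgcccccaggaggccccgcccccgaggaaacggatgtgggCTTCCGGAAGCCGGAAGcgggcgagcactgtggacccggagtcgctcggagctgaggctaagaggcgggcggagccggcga
Med14, chrX:12761924-12762223, minus strand: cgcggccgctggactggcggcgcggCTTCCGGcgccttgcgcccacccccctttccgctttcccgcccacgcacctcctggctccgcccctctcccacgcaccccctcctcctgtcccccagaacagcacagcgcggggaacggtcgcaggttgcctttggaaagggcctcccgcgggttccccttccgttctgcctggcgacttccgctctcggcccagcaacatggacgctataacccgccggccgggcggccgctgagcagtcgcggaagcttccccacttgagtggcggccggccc
Med21, chr6:146642329-146642628, plus strand: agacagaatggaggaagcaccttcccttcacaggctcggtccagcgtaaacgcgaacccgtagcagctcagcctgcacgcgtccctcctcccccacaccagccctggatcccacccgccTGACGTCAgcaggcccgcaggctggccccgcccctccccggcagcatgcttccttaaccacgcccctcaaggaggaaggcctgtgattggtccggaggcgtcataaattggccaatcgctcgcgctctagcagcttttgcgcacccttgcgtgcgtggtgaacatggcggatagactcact
Cdk8, chr5:146231000-146231299, plus strand: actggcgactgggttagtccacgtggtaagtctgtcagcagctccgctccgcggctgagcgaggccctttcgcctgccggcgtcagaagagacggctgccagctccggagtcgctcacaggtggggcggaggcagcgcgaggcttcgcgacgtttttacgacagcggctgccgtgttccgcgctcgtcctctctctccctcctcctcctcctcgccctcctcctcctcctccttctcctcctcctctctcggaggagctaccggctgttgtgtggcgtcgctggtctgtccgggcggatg

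The member promoters carried these letters about as often as the promoters of other genes expressed in the cells. The ETS letters were in 8 of 28 members (28.6%), against 23.5% of the 7256 tested genes with a window and 8.86% of all 32841 windows. The YY1 letters were in 4 members (14.3%, against 9.54% of tested genes), the Sp1 letters in 19 (67.9%, against 71.0%) and CCAAT in 11 (39.3%, against 43.4%). TATAAA was in 3 members (10.7%, against 7.98%), the cyclic AMP element in 1 (3.57%, against 4.08%) and the NRF1 letters in 0 (against 2.77%). A median member window held 20 CG dinucleotides, against 21 for tested genes and 7 for all windows. A match describes the letters of the window and is not a measured binding site.

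Nearly all Mediator genes were expressed in the naive cells. Of 33 members, 32 passed the filter on low counts and were tested, and Med12l did not. The members together took between 0.112% and 0.118% of all counts in a library. Their summed level was 1150.25, 1158 and 1175 CPM in LAIR-1-deficient mice 1 to 3, against 1161, 1166 and 1124 CPM in wild type mice 1 to 3. These sums overlapped between the genotypes and differed by less than the spread between mice, at 1161 ± 12.5 CPM in LAIR-1-deficient cells and 1150.27 ± 23.1 CPM in wild type cells (SD, n = 3 each).

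**Figure D1:**
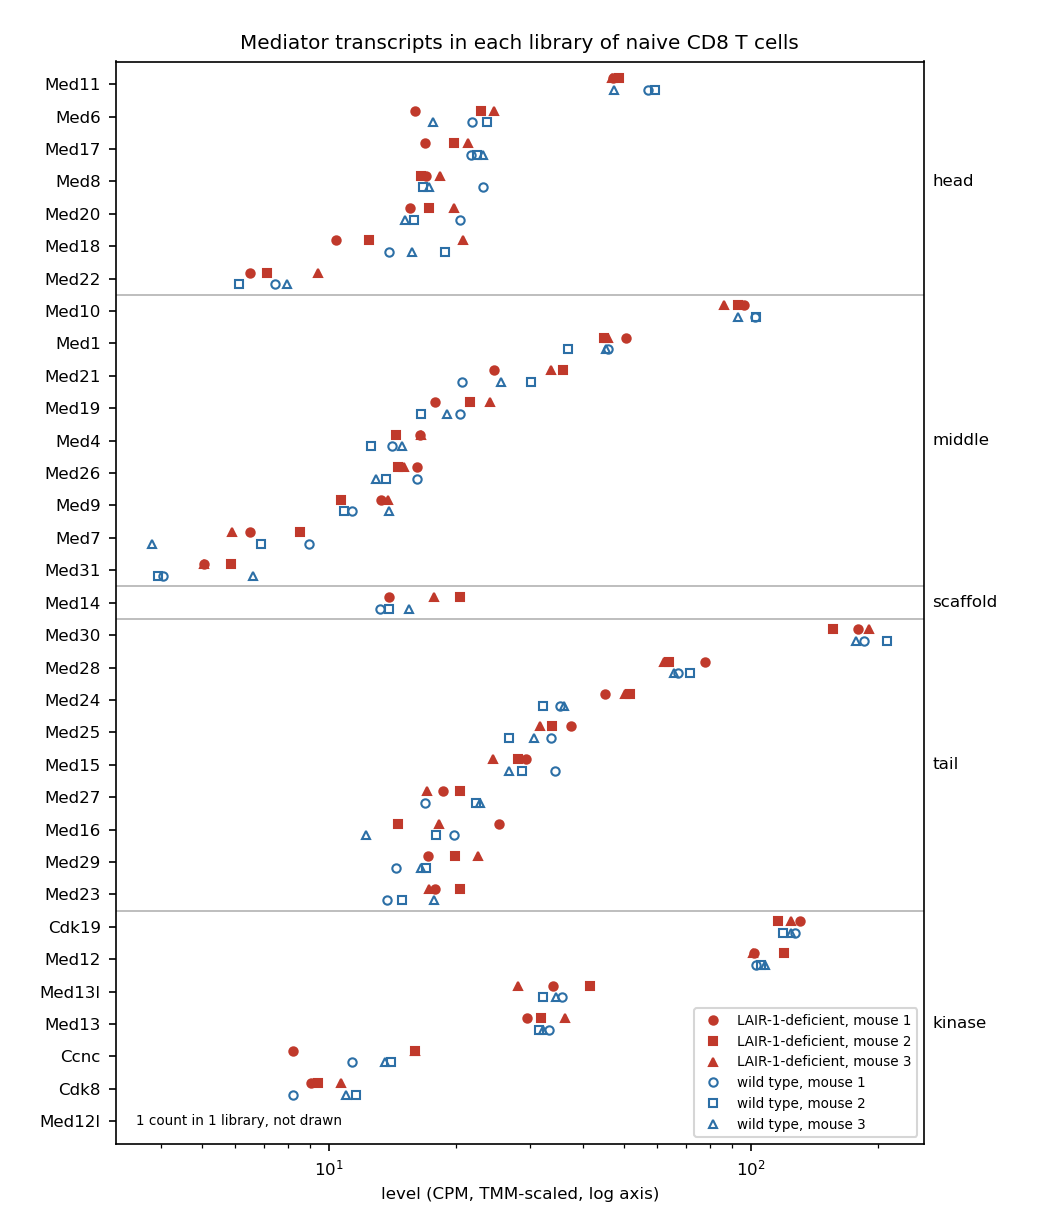
Level of each Mediator gene in each library (CPM on a log axis), grouped by module, with LAIR-1-deficient libraries as filled red symbols above wild type libraries as open blue symbols; the symbol shape gives the mouse number. Levels run from about 5 CPM (Med31, a mean of 5.09 CPM over 6 libraries) to a mean of 183 CPM (Med30), and only for Med24, Med29 and Med17 do the genotypes not overlap.

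Levels of different genes were compared per kilobase of annotated exon (GENCODE vM21, GRCm38). Med30, a tail subunit at the border with the head, was the highest at 148 ± 14.5 CPM per kilobase in LAIR-1-deficient cells and 161 ± 14.5 CPM per kilobase in wild type cells (SD, n = 3 each). Over the 6 libraries its mean level per kilobase lay at percentile 97.1 of the 9004 tested genes with a length. Med11, a small head subunit, followed at 45.4 ± 0.909 and 52.1 ± 5.99 CPM per kilobase in LAIR-1-deficient and wild type cells. The lowest tested member over all exon bases was the kinase gene Cdk8, at 0.989 ± 0.0846 CPM per kilobase in LAIR-1-deficient cells and 1.04 ± 0.185 CPM per kilobase in wild type cells.

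Between these ends, Med10 and Cdk19 shared the next place at 21.3 and 21.1 CPM per kilobase over the 6 libraries, with overlapping ranges. Then came Med6 at 14.6, Med29 at 14.0, Med12 at 13.8 and Med28 at 13.6 CPM per kilobase, whose ranges overlapped from each to the next. Of the 31 pairs of neighbours in the order, 5 had ranges that did not overlap: Med30 above Med11, Med11 above Med10, Cdk19 above Med6, Med28 above Med19, and Med14 above Cdk8. The remaining members lay between 9.67 (Med19) and 1.80 CPM per kilobase (Med14). The order depends on the length used. Without division by length, 3 of the 5 highest members remained, since Med12 and Med28 stood in place of Med11 and Med6, and with the longest transcript in place of all exons the 5 were the same. The lowest place changed in both cases: Med31 was the lowest in CPM, and with the longest transcript Med22 (2.12 CPM per kilobase) and Med14 (2.27) lay below Cdk8 (2.57). The longest annotated transcript has only 2 exons for Cdk8 and for Med10, and which transcripts the cells expressed was not tested. The labels do not say whether reads came from whole transcripts or from their ends, and in the second case a level per kilobase understates long genes.

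The estimated variation between replicates was similar in members and in other genes. For each gene, edgeR draws this estimate toward a trend with abundance, which brings such medians together. The biological coefficient of variation estimated by edgeR had a median of 0.122 over the members, also 0.122 over the 7217 genes within the members' range of CPM, and 0.129 over all tested genes. It ranged from 0.104 to 0.214 among members.

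No Mediator gene passed the test between the genotypes. In edgeR's quasi-likelihood test with Benjamini-Hochberg adjustment over 9565 genes, 0 of 32 members had an adjusted p under 0.05, against 0.0105% of all genes tested, and that gene was Lair1. The members' adjusted p was 0.9999 throughout. An unadjusted p under 0.05 was reached by 1 member (3.12%), Med24, against 3.25% of all genes. DESeq2 and limma-voom each gave 0 members at an adjusted p under 0.05 and 1 (3.12%) at an unadjusted p under 0.05, against 2.27% of all genes with DESeq2 and 3.16% with limma-voom. Levels were fully separated between the genotypes, with no overlap of the libraries, for 3 members (9.38%), against 8.38% of all genes, which is near the background. Higher in LAIR-1-deficient cells were 2 of them, Med24 and Med29 (4.3% of all genes), and lower was 1, Med17 (4.09% of all genes).

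The median log2 fold change of the 32 tested members, LAIR-1-deficient over wild type, was 0.04, against 0.001 over all genes tested, and it was 0.11 without mouse 1 of both genotypes. Positive values were found for 22 members and negative values for 10 (68.8% positive, against 50.2% of all genes). Fold changes ran from -0.21 (Med17) to 0.50 (Med24). For all 32 tested members the 95% interval stayed inside a 2-fold difference either way (85.9% of all genes), and for 22 of them inside 1.5-fold (68.8%, against 63.2% of all genes).

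**Figure D2:**
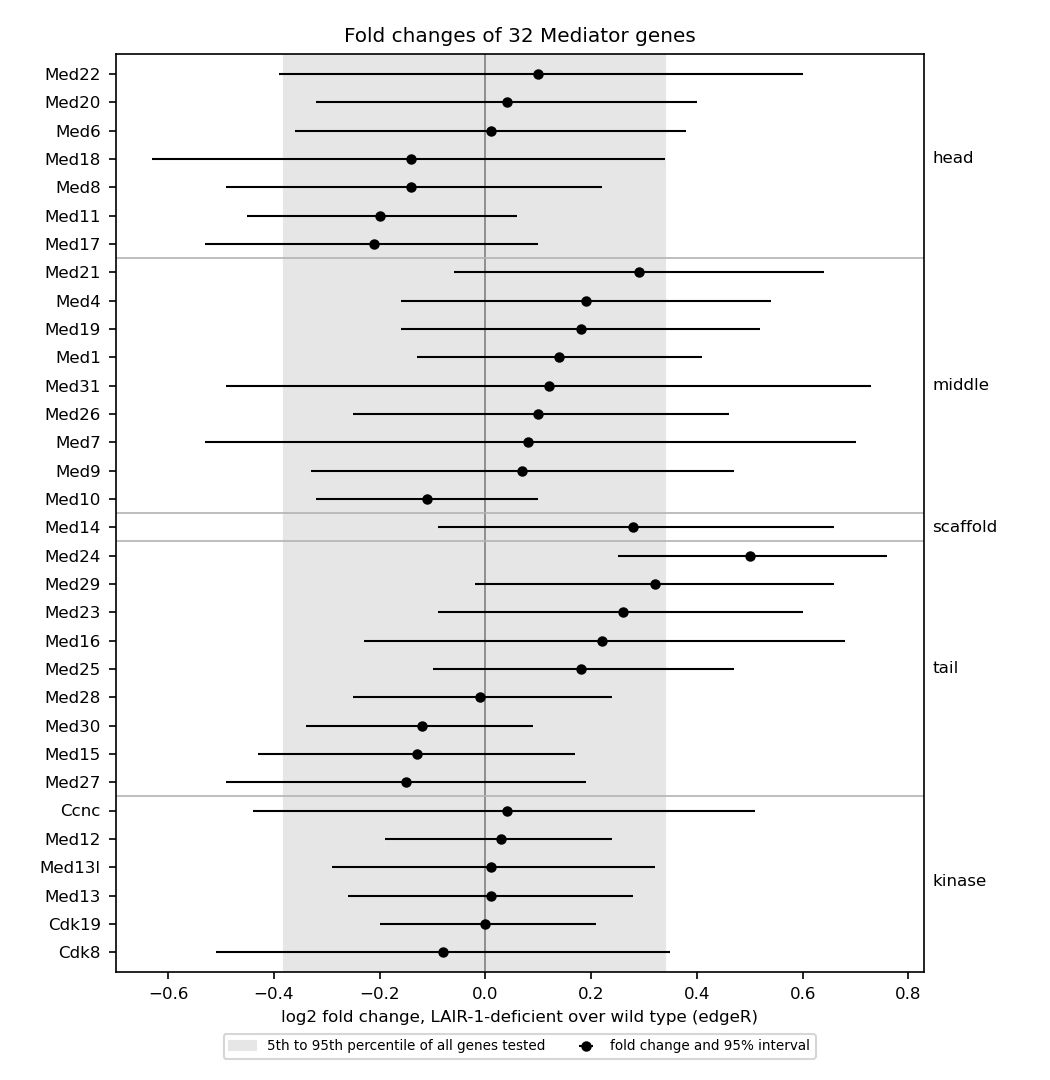
Log2 fold change of each of the 32 tested Mediator genes, LAIR-1-deficient over wild type (points), with its 95% interval from edgeR (bars), ordered within modules; the grey band spans the 5th to the 95th percentile of all genes tested, from -0.38 to 0.34. Med24 lies beyond the band at 0.50, and its interval is the only interval that does not include 0.

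The member with the largest fold change was a tail gene. Med24 (ENSMUSG00000017210.14, chromosome 11 from 98704591 to 98729435 on the minus strand in GRCm38, with 24 exons in its longest transcript) encodes a subunit of the tail. Its level was 45.0, 51.6 and 50.3 CPM in LAIR-1-deficient mice 1 to 3, against 35.3, 32.2 and 36.0 CPM in wild type mice 1 to 3. Each LAIR-1-deficient library was thus above each wild type library. On the log2 scale the difference was 0.50 (SE 0.12, 95% interval 0.25 to 0.76), or a 1.42-fold difference (1.19 to 1.70), with an adjusted p of 0.9999 in edgeR's test. This gene prompted the choice of the complex, so its difference is a description only. Without mouse 1 of both genotypes the log2 value was 0.58.

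Med29, a small subunit that joins tail and head, stood at 17.2, 19.9 and 22.6 CPM in LAIR-1-deficient mice 1 to 3, against 14.4, 17.0 and 16.5 CPM in wild type mice 1 to 3. The genotypes did not overlap, but the lowest LAIR-1-deficient value (17.15 CPM) lay just above the highest wild type value (16.96 CPM). Its log2 fold change was 0.32 with a 95% interval of -0.02 to 0.66. Med30 had 179.6, 156 and 189.8 CPM in LAIR-1-deficient cells, against 186, 210.1 and 177 CPM in wild type cells, with overlapping groups and a log2 fold change of -0.12 (-0.34 to 0.09).

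The other subunits of the tail proper are those through which DNA-bound factors recruit the complex. Med23, which is bound by the ETS factor ELK1 downstream of MAP kinase signals, had a log2 fold change of 0.26 (-0.09 to 0.60). Med25, a target of the viral activator VP16, had 0.18 (-0.10 to 0.47), and Med16 had 0.22 (-0.23 to 0.68). Med15, bound by the sterol-regulatory SREBP factors, had -0.13 (-0.43 to 0.17). The summed level of these 4 genes and Med24 was 155, 149 and 142 CPM in LAIR-1-deficient mice 1 to 3, against 137, 120.4 and 123 CPM in wild type mice 1 to 3. The sums did not overlap. Without Med24 they were 109.8, 96.9 and 91.5 CPM in LAIR-1-deficient cells, against 101, 88.2 and 87.2 CPM in wild type cells, and overlapped.

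Of the 9 tail genes 5 had positive and 4 had negative fold changes, and the median was 0.18. That median rested on single libraries: it was -0.02 without LAIR-1-deficient mouse 1, 0.10 without wild type mouse 2, 0.04 without wild type mouse 3, and 0.12 without mouse 1 of both genotypes. With Med27 to Med30 counted in the head, as other schemes do, the remaining 5 tail genes had a median of 0.22. Those 4 genes alone had a median of -0.06, with Med27 at -0.15 and Med28 at -0.01.

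Of the 7 head genes, 4 had negative and 3 had positive fold changes, none past the test. Med17, the central subunit of the head, had 16.9, 19.7 and 21.3 CPM in LAIR-1-deficient mice 1 to 3, against 21.7, 22.4 and 23.1 CPM in wild type mice 1 to 3. Every LAIR-1-deficient library was below every wild type library, by the smallest margin between 21.33 and 21.69 CPM, and the log2 fold change was -0.21 (95% interval -0.53 to 0.10). Med11 had 47.1, 48.6 and 46.8 CPM in LAIR-1-deficient cells, against 57.0, 59.1 and 47.3 CPM in wild type cells. Wild type mouse 3 stood with the LAIR-1-deficient libraries, and the log2 fold change was -0.20 (-0.45 to 0.06).

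Med6, a head subunit near the polymerase, had 16.0, 22.9 and 24.6 CPM in LAIR-1-deficient mice 1 to 3, against 21.8, 23.6 and 17.6 CPM in wild type mice 1 to 3, with overlapping groups and a log2 fold change of 0.01. Med8, Med18, Med20 and Med22 had log2 fold changes of -0.14, -0.14, 0.04 and 0.10. The median over the 7 head genes was -0.14. It was 0.05 without LAIR-1-deficient mouse 1, 0.03 without wild type mouse 1 and 0.04 without both, so its sign rested on the mouse 1 libraries. Summed head levels were 129, 145 and 161 CPM in LAIR-1-deficient cells, against 165, 163 and 144 CPM in wild type cells.

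Of the 9 middle genes, 8 had positive fold changes, none past the test. Med21, which pairs with Med7 in the hinge of the module, had 24.6, 35.8 and 33.6 CPM in LAIR-1-deficient mice 1 to 3, against 20.7, 30.1 and 25.6 CPM in wild type mice 1 to 3. In each genotype mouse 1 was the lowest, the groups overlapped, and the log2 fold change was 0.29 (-0.06 to 0.64). Med4 had 16.4, 14.4 and 16.5 CPM in LAIR-1-deficient cells, against 14.1, 12.6 and 14.9 CPM in wild type cells, with overlapping groups and a log2 fold change of 0.19 (-0.16 to 0.54).

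Med19 had 17.9, 21.5 and 24.1 CPM in LAIR-1-deficient cells, against 20.4, 16.5 and 19.1 CPM in wild type cells. Med10, the most abundant middle gene, had 96.1, 93.2 and 86.4 CPM in LAIR-1-deficient cells, against 101.9, 103 and 93.1 CPM in wild type cells. The groups overlapped for both genes, and the log2 fold changes were 0.18 (-0.16 to 0.52) and -0.11 (-0.32 to 0.10). Med10 was the only middle gene of 9 with a negative fold change.

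Med1, the subunit that nuclear receptors bind, was at 0.14 (-0.13 to 0.41), and Med26, through which elongation factors dock, at 0.10 (-0.25 to 0.46). Med7, Med9 and Med31 had log2 fold changes of 0.08, 0.07 and 0.12. The median over the 9 middle genes was 0.12, and 0.15 without mouse 1 of both genotypes. Summed middle levels were 246.5, 249 and 246.2 CPM in LAIR-1-deficient mice 1 to 3, against 243, 234 and 235 CPM in wild type mice 1 to 3. The sums did not overlap, by the smallest margin between 243 and 246.2 CPM, and their means differed by 1.04-fold. Over all genes tested, 8.38% had groups that did not overlap.

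**Figure D3:**
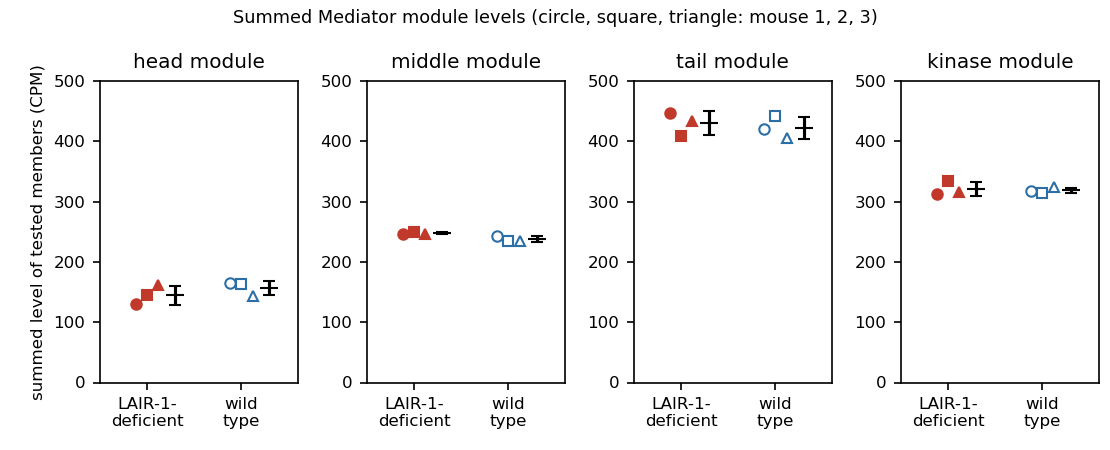
Summed level (CPM) of the tested members of the head, middle, tail and kinase modules in each library, LAIR-1-deficient (filled red) left of wild type (open blue), with the mean and SD of each group in black (n = 3 each). With Med27 to Med30 in the tail, as drawn, the tail has the highest sum (430.1 ± 19.5 CPM in LAIR-1-deficient and 422 ± 18.1 CPM in wild type cells) and the head the lowest (145 ± 15.8 and 157 ± 11.6 CPM), and only the middle sums do not overlap between genotypes. With these 4 genes in the head the order turns, with 427 and 453 CPM for the head and 148 and 127 CPM for the remaining tail.

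Med14, the scaffold, had 13.8, 20.5 and 17.8 CPM in LAIR-1-deficient mice 1 to 3, against 13.2, 13.9 and 15.5 CPM in wild type mice 1 to 3. LAIR-1-deficient mouse 1 lay among the wild type libraries and mice 2 and 3 above them. The log2 fold change was 0.28 (95% interval -0.09 to 0.66), and 0.37 without mouse 1 of both genotypes. Med14 and Med12 are the members on the X chromosome.

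Kinase module genes were the closest to equal between the genotypes, with log2 fold changes from -0.08 to 0.04 over 6 tested genes and a median of 0.01, or 0.04 without mouse 1 of both genotypes and -0.06 without LAIR-1-deficient mouse 2. Med12, which activates the kinase, had 101.8, 119.9 and 100.9 CPM in LAIR-1-deficient mice 1 to 3, against 102.5, 106 and 108 CPM in wild type mice 1 to 3. The wild type values lay inside the LAIR-1-deficient range, and the log2 fold change was 0.03 (-0.19 to 0.24). Ccnc, which encodes cyclin C, had 8.22, 16.01 and 16.00 CPM in LAIR-1-deficient cells, against 11.4, 14.0 and 13.6 CPM in wild type cells. LAIR-1-deficient mouse 1 was the lowest of all 6 libraries for Ccnc and the other LAIR-1-deficient libraries the highest, and the log2 fold change was 0.04 (-0.44 to 0.51).

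The kinase position of the complex is filled by either CDK8 or CDK19, which are close relatives and are not found together in the same complex. Cdk19 had 130.4, 116 and 125 CPM in LAIR-1-deficient mice 1 to 3, against 127, 119 and 124 CPM in wild type mice 1 to 3. Cdk8 had 9.08, 9.43 and 10.7 CPM in LAIR-1-deficient cells, against 8.198, 11.6 and 10.99 CPM in wild type cells. The genotypes overlapped for both, with log2 fold changes of 0.00 (-0.20 to 0.21) for Cdk19 and -0.08 (-0.51 to 0.35) for Cdk8.

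Cdk19 therefore supplied most counts of the pair in every library. Its share was 93.5%, 92.5% and 92.1% in LAIR-1-deficient mice 1 to 3, against 93.9%, 91.1% and 91.9% in wild type mice 1 to 3. The exact 95% binomial (Clopper-Pearson) interval ran from 91.7 to 94.96% in LAIR-1-deficient mouse 1 and from 89.4 to 92.7% in wild type mouse 2. Such intervals cover counting error only. Group means were 92.7 ± 0.714% and 92.3 ± 1.47% (SD, n = 3 each). In counts, without division by length, Cdk19 exceeded Cdk8 by 10.3- to 15.5-fold over the 6 libraries. Over all exon bases, it exceeded Cdk8 per kilobase by 17.2- to 26.1-fold. The gap was smaller with the longest transcript, where the means over the 6 libraries were 21.3 CPM per kilobase for Cdk19 and 2.57 CPM per kilobase for Cdk8. How reads common to the pair were assigned is not given in the sources used here, so the split carries that uncertainty.

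Med13 and Med13l, alternative links between the kinase module and the core, were present in nearly equal counts. Med13 had 29.4, 31.8 and 36.2 CPM in LAIR-1-deficient mice 1 to 3, against 33.3, 31.5 and 32.2 CPM in wild type mice 1 to 3, a log2 fold change of 0.01 (-0.26 to 0.28). Med13l had 33.9, 41.6 and 28.03 CPM in LAIR-1-deficient cells, against 35.7, 32.1 and 34.4 CPM in wild type cells, also 0.01 (-0.29 to 0.32). The spread between mice was wider in LAIR-1-deficient cells for both genes.

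The share of Med13l in the counts of the pair was 53.5%, 56.7% and 43.6% in LAIR-1-deficient mice 1 to 3, against 51.7%, 50.4% and 51.7% in wild type mice 1 to 3. LAIR-1-deficient mouse 3 had an exact 95% interval of 39.1 to 48.2%, below that of LAIR-1-deficient mouse 2 (51.7 to 61.5%), while the 3 wild type intervals overlapped. Group means were 51.3 ± 6.81% and 51.3 ± 0.739% (SD, n = 3 each). Which of the pair was higher per length turned with the length used. Over all exon bases Med13l was at 0.544 to 0.919 times Med13, whereas with the longest transcript the mean over the 6 libraries was 3.69 CPM per kilobase for Med13l and 3.07 CPM per kilobase for Med13.

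Med12l, the paralog of Med12, had 0, 1 and 0 counts in LAIR-1-deficient mice 1 to 3 and 0 counts in each wild type library. In wild type cells this was 0 of 2744 counts of the pair, which allows a share of up to 0.109%, and in LAIR-1-deficient cells it was 1 of 2119. No fold change was formed for Med12l.

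**Figure D4:**
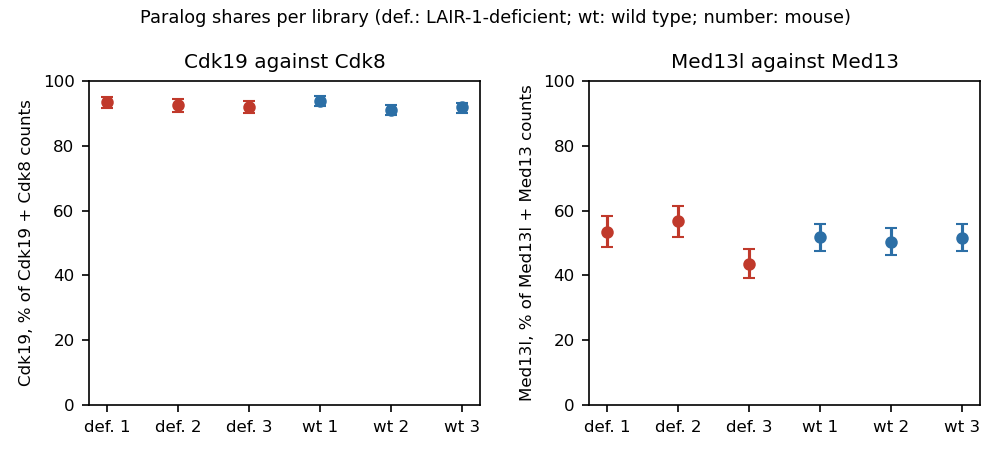
Share of Cdk19 in the counts of Cdk19 and Cdk8 (left) and of Med13l in the counts of Med13l and Med13 (right) in each library, in percent, with exact 95% binomial intervals as bars; LAIR-1-deficient libraries are red and wild type libraries blue. Cdk19 stays between 91.1% and 93.9% in all 6 libraries, whereas Med13l spans 43.6% to 56.7% in LAIR-1-deficient cells and 50.4% to 51.7% in wild type cells.

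Mouse 1 of each genotype carried high levels of immediate early genes, and the Mediator genes were compared across the same libraries. Egr1, a transcription factor gene, had 567, 136 and 102 CPM in LAIR-1-deficient mice 1 to 3, and 604, 140.3 and 175 CPM in wild type mice 1 to 3. Fos had 1238, 389 and 449 CPM in LAIR-1-deficient mice 1 to 3 and 949.8, 406 and 493 CPM in wild type mice 1 to 3. For Nr4a1, a nuclear receptor gene, levels were 588, 78.3 and 56.7 CPM in mice 1 to 3 that lacked LAIR-1 and 473, 80.4 and 113 CPM in wild type mice 1 to 3. Each of these genes was thus highest in mouse 1 of its genotype.

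Over 23 immediate early genes the median difference of mouse 1 from the mean of mice 2 and 3, in log2 CPM, was 1.44 in LAIR-1-deficient cells and 1.09 in wild type cells. For the 32 Mediator genes it was -0.09 and 0.06. A difference beyond 0.5 in the same direction in both genotypes was found for 20 of the 23 immediate early genes, for 0 of the 32 Mediator genes and for 288 of the 9565 genes tested. Mouse 1 was looked at because of the immediate early genes, so their number was expected. The 0 for Mediator genes is near the share over all genes. The members nearest to such a shift were Med21, at -0.48 in LAIR-1-deficient and -0.42 in wild type cells, and Med16, at 0.62 and 0.41. The largest single deviation was that of Ccnc in LAIR-1-deficient mouse 1, at -0.92, against -0.27 in wild type mouse 1.

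**Figure D5:**
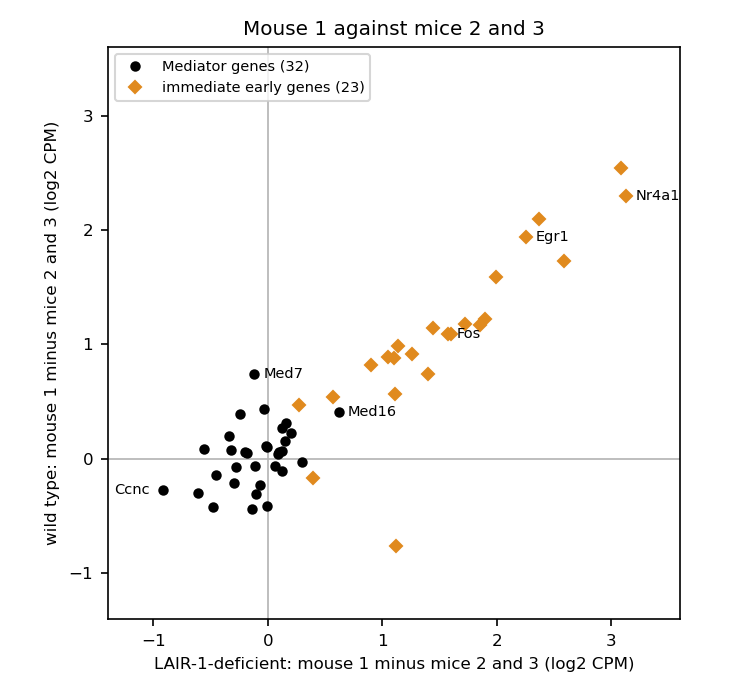
Difference of mouse 1 from the mean of mice 2 and 3 in log2 CPM, in LAIR-1-deficient cells (horizontal) and in wild type cells (vertical), for 32 Mediator genes (black circles) and 23 immediate early genes (orange diamonds). The Mediator genes lie around 0 on both axes, while 21 of the 23 immediate early genes are above 0 on both.

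Lists of genes that work beside Mediator at promoters also had no calls. Over all genes tested edgeR's test called 0.0105%, only Lair1, and 3.25% had an unadjusted p under 0.05. A list without Lair1 therefore has 0 calls, which is no particular trait of these genes. In edgeR's test 0 of 13 tested subunits of RNA polymerase II passed, with a median log2 fold change of 0.04 and 0 at an unadjusted p under 0.05. The 2 with the smallest p were Polr2h, at 23.8 ± 0.875 CPM in LAIR-1-deficient cells and 20.4 ± 1.013 CPM in wild type cells, and Polr2d, at 28.1 ± 3.27 and 24.6 ± 1.11 CPM (SD, n = 3 each). Of 32 tested general transcription factor genes 0 passed, 18 were positive and 14 negative, and the median was 0.03. Among them Ercc2, the TFIIH helicase, was at 24.3 ± 2.39 and 20.4 ± 0.809 CPM, and Taf15 at 33.0 ± 10.1 and 25.0 ± 5.40 CPM.

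Of 23 tested genes of pausing and elongation 0 passed, with a median of 0.06. Ccnk, the cyclin of CDK12 and CDK13, was at 73.8 ± 9.49 CPM in LAIR-1-deficient cells and 64.9 ± 3.56 CPM in wild type cells, and the elongation factor gene Supt6 at 43.8 ± 2.51 and 38.8 ± 6.62 CPM. Of 19 tested genes for transcription factors known to contact Mediator subunits 0 passed and 1, Ppard, had an unadjusted p under 0.05, and the median was 0.09. Ppard, a lipid-sensing nuclear receptor, was at 13.4 ± 1.90 CPM in LAIR-1-deficient cells and 10.1 ± 1.07 CPM in wild type cells, and Srebf1, the SREBP gene whose protein binds Med15, at 47.6 ± 1.74 and 40.6 ± 3.65 CPM. DESeq2 and limma-voom gave 1 and 0 calls over all genes.

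Of the 33 members, 7 (21.2%) lie on chromosome 11, which holds 8.05% of the genes in the table. These 7 are Med1, Med7, Med9, Med11, Med13, Med24 and Med31, and their log2 fold changes were 0.14, 0.08, 0.07, -0.20, 0.01, 0.50 and 0.12 in that order, so that Med11 alone was negative. None passed the test, and 50.2% of all genes and 68.8% of the tested members had a positive value. Med24, which prompted the choice of the complex, is among them, and the position of the others was not tested. Exons of several members overlap another annotated gene, and since the strand setting of the counting is not given, reads of such partners could be counted with the member. The widest overlap is that of Med10, with 92.8% of its exon bases opposite the noncoding gene Gm26819. Med24 shares 81 exon bases (1.24%) with the small nucleolar RNA gene Gm22059 on its own strand.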

How the data were processed

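RNA of sorted naive CD8 T cells was measured in 6 libraries, 3 per genotype. The authors deposited gene counts without normalisation, as whole numbers, with a column for each library. The submitters' processing notes name BWA and mm10. The sources used here do not state the annotation, counting tool, strand setting, use of molecular identifiers or BWA version. Per the labels' protocols, libraries used small RNA primers. Columns were matched by sample description, and 4 spike-in rows (at most 4 counts per library) were left out.

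The test over all genes used edgeR 4.0.16 under R 4.3.3 (filterByExpr with a smallest count of 10, TMM, robust quasi-likelihood F test, two-sided, no covariate), adjusted by Benjamini-Hochberg over 9565 genes at 0.05. SEs were derived from the F statistic. Alternatives used DESeq2 1.42.0 and limma 3.58.1. Per-library log2 differences used log2(CPM + 0.5). The fit was also run on counts simulated from the means of these data and its own dispersions. That run checks the code and cannot show whether the model suits these mice. The labels name separate mice, so p-values measure the spread between mice. Members, modules and lists were chosen with earlier results of these data known. Given with full values were, per module, the 2 members of lowest unadjusted p and the 2 of highest level per kilobase, Med14, the kinase module, 2 genes per transcription list with the smallest p, and Egr1, Fos and Nr4a1; the other members have fold changes. Lists also covered markers of other cells. A gene used in the cell sort was left out.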

Additional observations from a re-analysis of the deposited data

How the results depend on the processing

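No alternative called a Mediator gene: the counts of members higher and lower were 0 and 0 with other scalings, filters and tools, with mouse number as a replicate block, and with each library left out. The same fits called between 0 and 3 genes over the whole table, so 0 members is near the share over all genes. The lowest adjusted p of any named member in these fits was 0.31, for Med24, whose log2 fold change stayed between 0.46 and 0.58. Of 238 fold changes of 17 named members, 0 moved by more than the spread between mice, the SD within genotypes. Leaving out 1 of 3 libraries can hardly move a value past that spread, so this 0 was nearly fixed in advance. The opposite sign was found for 14 of the 238, in 6 members (Med6, Ccnc, Cdk8, Med12, Med13 and Med13l). The median of all members was 0.11 without mouse 1 of both genotypes, and 0.02 to 0.07 with 1 library left out. Head medians were 0.04 without mouse 1 of both genotypes and -0.18 to 0.05 with 1 library left out; tail medians were 0.12 and -0.02 to 0.21, and 0.22 with Med27 to Med30 in the head. Kinase medians lay between -0.06 and 0.04, middle medians between 0.07 and 0.19 and Med14 between 0.15 and 0.42 with 1 library left out. The difference in the Cdk19 share was 0.388 percentage points, and -0.208 to 1.21 with 1 library left out; that of Med13l was -0.0147, and -2.71 to 3.81. Of the 5 members highest per kilobase, 3 remained without division by length. The cause of these shifts was not tested beyond the libraries or genes left out. Mouse numbers gave no clear pairing beyond mouse 1. Deviations of the mouse 1 libraries correlated over genes at 0.30, the highest value of any pair across genotypes. Those of same-numbered mice 2 and 3 correlated at 0.02 and 0.07, and LAIR-1-deficient mouse 2 correlated best with wild type mouse 3 (0.19). With the block, 1 gene was called over all genes, and the member median was 0.03. Scaling to library totals, chosen after seeing the data for the mouse 1 differences, gave medians of -0.12 and 0.05. For 10 of 32 members the interval reached past 1.5-fold, which limits what 3 mice per group could show.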
